A study of Mus musculus with 12 samples.

Results

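miR-21a is the mouse microRNA-21, and its hairpin gives a pair of mature strands, miR-21a-5p and miR-21a-3p. Both were taken by name from the deposited table, so there are 2 members among the 1652 mature miRNA names listed. The table describes small RNA from kidneys of untreated wild-type (WT) mice at postnatal day 8 and at day 0, with 6 libraries at each age. The study looked for miRNAs that differ between these ages and might regulate the mineralocorticoid receptor. The labels name no strain, sex, litter or batch, and nothing in them ties each library to an animal of its own, so p-values measure only the spread between these samples. Libraries held 5.16 to 11.8 M miRNA reads at day 8 and 3.37 to 9.05 M at day 0 (M, 1000000).

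A microRNA hairpin is cut by Drosha and Dicer into a short duplex. The strand that is loaded into Argonaute guides it to messenger RNAs through its seed, bases 2 to 8, while the other strand is mostly degraded. The 5p strand is the usual guide of miR-21. It is induced by STAT3, AP-1 and TGF-beta signalling, and in the kidney it is best known for rising after ischaemia or ureteral obstruction and for favouring fibrosis, with Ppara and Pdcd4 among its reported targets.

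The sequences are shown because both members come from a single precursor yet carry different seeds, given here in capitals, and because related loci could share reads with the 5p arm. All 4 are RefSeq records on GRCm38.p6, written 5′ to 3′.
miR-21a-5p: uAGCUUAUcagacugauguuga
miR-21a-3p: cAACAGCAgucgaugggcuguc
miR-21c: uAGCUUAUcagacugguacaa
miR-21b: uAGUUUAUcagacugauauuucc
miR-21a-5p lies at chr11:86584120-86584141 and miR-21a-3p at chr11:86584082-86584103, both on the minus strand. Their hairpin, chr11:86584067-86584158, lies inside exon 12 of the protein-coding gene Vmp1 on the same strand, in the part that GENCODE M21 marks as untranslated. Each arm is 22 bases long. The 5p arm begins with U and has a GC content of 36.4%, while the 3p arm begins with C and has a GC content of 59.1%.

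Among 1674 distinct mature mouse sequences in RefSeq, the seed AGCUUAU was held by miR-21a-5p and miR-21c, and the seed AACAGCA by miR-21a-3p. Strands without a RefSeq record were not searched, and RefSeq held both arms for only 63 of the 72 hairpins compared below. Counted from the 5′ end, with the base of miR-21a-5p first, miR-21c differs by A16G, G18A, U19C, U20A and G21A, so its first 15 bases are the same. miR-21b differs by C4U, G18A, G21U and A22C, the first of which falls within the seed. Neither miR-21b nor miR-21c was among the 1652 names listed, so they were not analysed here. How the authors' mapping treated reads that stop before base 16 is not given in the sources used here.

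The guide strand took a larger share of the kidney's miRNA reads at day 8, while the passenger strand showed no change in CPM past the threshold, a result that depended on the scaling. miR-21a-5p rose 1.60-fold, and every day 8 library lay above every day 0 library. miR-21a-3p stayed near 50 CPM (reads scaled to a common library total of 1000000) at both ages, with libraries that overlapped. The 5p-to-3p ratio therefore also rose.

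miR-21a-5p had 12881.8, 15363.5, 12445.6, 9931.2, 10803.7 and 11997.2 CPM in day 8 replicates 1 to 6, against 8062, 8151, 7481, 7568, 6730 and 8003 CPM in day 0 replicates 1 to 6. The lowest day 8 library stood above the highest day 0 library, and the day 8 libraries were the more scattered, with a coefficient of variation of 15.4% at day 8 and 6.96% at day 0. The 95% Wilson interval from read numbers ran from 12350.2 to 12541.6 CPM in day 8 replicate 3 and from 7908 to 8098 CPM in day 0 replicate 6, the libraries with the fewest reads at their age. Such intervals cover counting error only, and the scatter between libraries was wider.

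As a share of the library, miR-21a-5p made up 1.22% ± 0.188 of all miRNA reads at day 8 and 0.767% ± 0.0534 at day 0 (SD, n = 6 each), a difference of 0.457 percentage points with a two-sided exact permutation p of 0.00216, the smallest this design allows. Across all names tested, limma gave it a log2 change of 0.66 (SE 0.0948, 95% interval 0.46 to 0.87, adjusted p = 2.17e-05) on the log2(CPM + 1) scale, day 8 minus day 0. Of 564 names tested, 64.7% were called in either direction, 16.5% were called higher at day 8, and 10.8% were higher with no overlap between the ages. The share called higher was 30.3% with TMM and 37.8% with upper quartile factors. Since CPM is scaled to a library's total, the change is one of share, and in whole kidney more cells holding miR-21a-5p and more of it per cell cannot be told apart.

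The median of all 564 log2 changes was -0.34, so the rise of miR-21a-5p is larger when read against the typical name. With TMM factors, which moved that median to -0.00, its log2 change was 1.05 (limma adjusted p = 4.65e-07), and 1.23 with upper quartile factors (limma adjusted p = 3.30e-07). A larger rise than that of miR-21a-5p was seen for 47 of the 564 names, 45 of which were called higher. Among the 38 names with a mean of at least 5000 CPM, 13 were called higher, 14 lower, and 5 rose by more than miR-21a-5p.

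**Figure D1:**
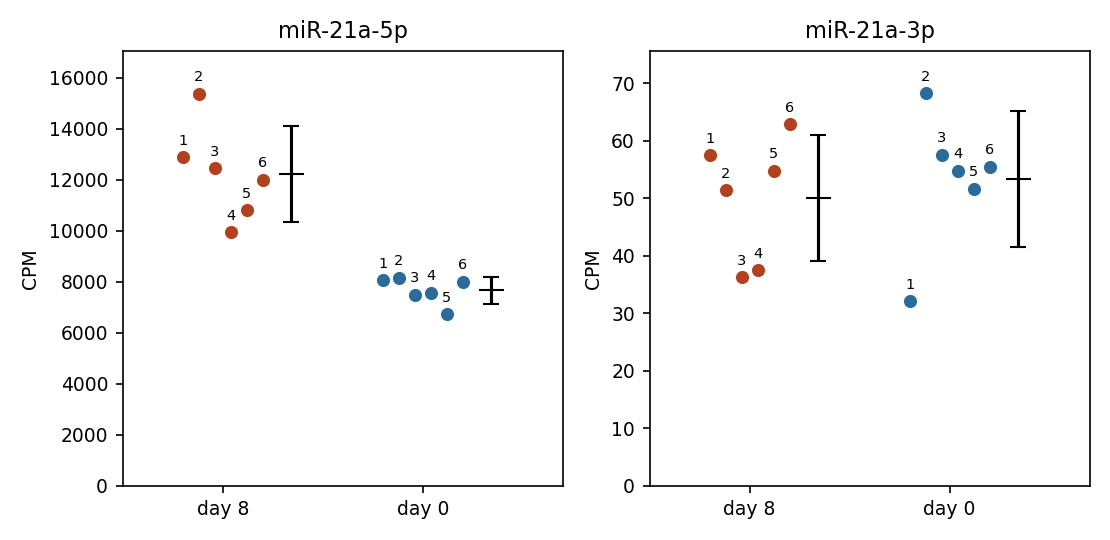
CPM (vertical axis, from 0) of each arm of miR-21a in the 6 day 8 libraries (left) and the 6 day 0 libraries (right) of each panel, with replicate numbers above the points and the mean with its SD beside them. The 5p arm does not overlap between the ages (9931.2 CPM at the lowest in day 8, 8151 at the highest in day 0), while the 3p arm overlaps widely.

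**Figure D2:**
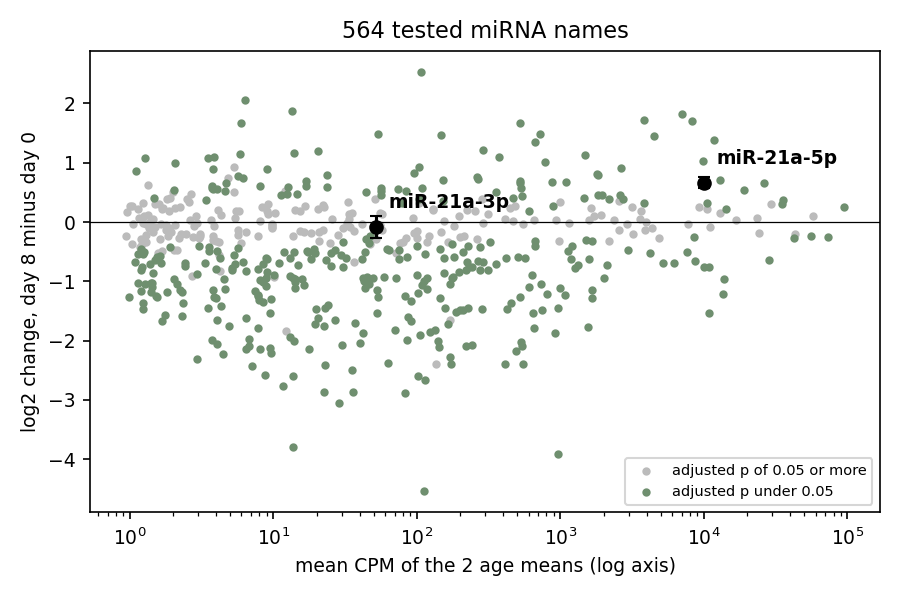
Log2 change, day 8 minus day 0 (vertical axis), against mean CPM (horizontal log axis) for the 564 names tested, green where the limma adjusted p was under 0.05 and grey otherwise. The black points with SE bars are miR-21a-5p at 0.66, among the abundant names, and miR-21a-3p at -0.08.

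By rank within a library, where 1 is the most abundant name, miR-21a-5p held places 22, 19, 21, 25, 25 and 22 in day 8 replicates 1 to 6, against places 29, 31, 33, 33, 34 and 31 in day 0 replicates 1 to 6. The ranks do not overlap either. The mean rank was 22.3 ± 2.34 at day 8 and 31.8 ± 1.83 at day 0 (SD, n = 6 each), a difference of -9.50 places with a two-sided exact permutation p of 0.00216. A rank does not depend on how a library is scaled.

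At day 8 the names just above miR-21a-5p by mean CPM were miR-30c-5p (13140.4 ± 1176 CPM, SD, n = 6) and miR-30e-5p (12648 ± 1389), and those just below were miR-200b-3p (11643 ± 993) and let-7b-5p (11375.5 ± 2282). miR-21a-5p itself stood at 12237.2 ± 1880 CPM, its range overlapped that of each neighbour, and it was the higher of the pair in 1, 2, 4 and 3 of 6 libraries in that order. At day 0 its neighbours above were miR-148a-3p (8270 ± 976 CPM, SD, n = 6) and miR-152-3p (7807 ± 568), and those below were let-7e-5p (7665 ± 776) and miR-30a-5p (6542 ± 621). miR-21a-5p stood at 7666 ± 534 CPM, and its range overlapped those of all 4. It was the higher of the pair in 2, 2, 2 and 5 of 6 libraries in that order, and its mean lay above the highest library of miR-30a-5p, 6988 CPM. Levels of different miRNAs are compared here at about equal length, and differences in how well each strand is ligated into a library are not corrected.

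miR-21a-3p had 57.5, 51.4, 36.3, 37.5, 54.8 and 62.9 CPM in day 8 replicates 1 to 6, against 32.1, 68.3, 57.6, 54.8, 51.6 and 55.5 CPM in day 0 replicates 1 to 6. The lowest and the highest library were both of day 0, and the day 8 values fell between them. Between 187 and 741 reads per library lay behind the day 8 values and between 187 and 496 behind the day 0 values. At 187 reads, the 95% Wilson interval was 31.4 to 41.8 CPM in day 8 replicate 3 and 48.1 to 64.0 CPM in day 0 replicate 6.

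The mean of miR-21a-3p was 50.1 ± 10.9 CPM at day 8 and 53.3 ± 11.9 CPM at day 0 (SD, n = 6 each), with a log2 change of -0.08 (SE 0.184, 95% interval -0.48 to 0.31, limma adjusted p = 0.707). On CPM, that interval excludes a rise as large as the 0.66 of the 5p arm, but not a rise of up to 0.31 or a fall of down to -0.48. The exact permutation p of its share, 0.00501% ± 0.00109 of the library at day 8 and 0.00533% ± 0.00119 at day 0 (SD, n = 6 each), was 0.63. The sign turned with the scaling: the log2 change was 0.30 with TMM factors (limma adjusted p = 0.152) and 0.47 with upper quartile factors, where it passed the threshold (limma adjusted p = 0.0459).

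miR-21a-3p held places 219, 221, 258, 245, 234 and 213 in day 8 replicates 1 to 6, against places 282, 233, 248, 255, 258 and 260 in day 0 replicates 1 to 6. The mean rank was 232 ± 17.3 at day 8 and 256 ± 16.1 at day 0 (SD, n = 6 each), a difference of -24.3 places with a two-sided exact permutation p of 0.0346, not adjusted for the 5 tests of this kind made on the 2 arms. The ranks overlapped, and leaving out a single library (day 8 replicate 1, 2 or 6, or day 0 replicate 1, 5 or 6) gave a p between 0.0563 and 0.0693. The neighbours of miR-21a-3p at day 8 were miR-362-5p (52.0 ± 4.31 CPM, SD, n = 6), miR-125b-1-3p (51.6 ± 7.63), miR-136-3p (48.4 ± 5.88) and miR-376b-5p (48.3 ± 7.96). At day 0 they were miR-12188-5p (53.8 ± 62.1 CPM, SD, n = 6), miR-30c-1-3p (53.4 ± 14.5), miR-152-5p (53.3 ± 2.86) and miR-26a-1-3p (52.6 ± 5.49). The range of each overlapped that of miR-21a-3p, so the order among them is not resolved.

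The arm ratio puts both strands of the same hairpin in the same library against each other, so the scaling of the library drops out. The 5p CPM was 224, 299, 343, 265, 197 and 191 times the 3p CPM in day 8 replicates 1 to 6, against 251, 119, 130, 138, 130 and 144 in day 0 replicates 1 to 6. In day 0 replicate 1 the ratio lay within the day 8 range, and the other 5 day 0 libraries lay below all 6 day 8 libraries. On the log2 scale, with 1 CPM added to each arm, the ratio was 7.92 ± 0.334 at day 8 and 7.17 ± 0.382 at day 0 (SD, n = 6 each). The difference of 0.75 (SE 0.182, 95% interval 0.36 to 1.13) passed the threshold in limma over 72 hairpins (adjusted p = 0.00225), and its two-sided exact permutation p was 0.00866. Without day 0 replicate 1 the difference was 0.90 (limma adjusted p = 0.000138).

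The 3p arm supplied 0.412% ± 0.0936 of the reads of both arms at day 8 and 0.693% ± 0.153 at day 0 (SD, n = 6 each). The lowest day 8 share was 0.290% in replicate 3 (exact Clopper-Pearson 95% interval 0.250 to 0.335%) and the highest was 0.521% in replicate 6 (0.485 to 0.560%). The lowest day 0 share was 0.396% in replicate 1 (0.349 to 0.448%) and the highest was 0.830% in replicate 2 (0.754 to 0.912%). Intervals of libraries of the same age were apart, so the spread between them was wider than counting error alone gives.

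**Figure D3:**
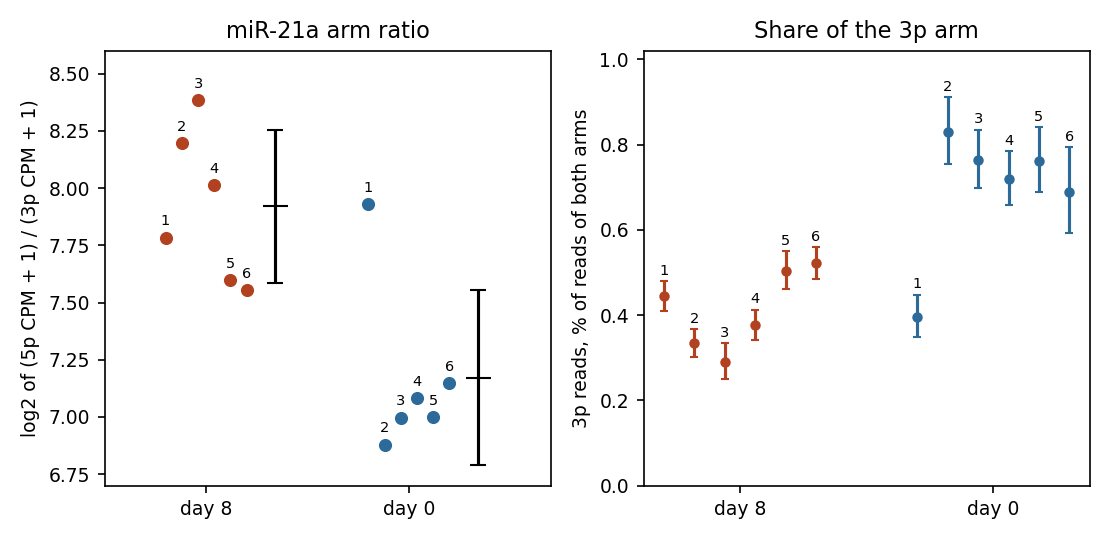
Left, log2 of the 5p-to-3p ratio per library, with 1 CPM added to each arm, with mean and SD; right, 3p reads as a percent of the reads of both arms, with exact 95% intervals for counting error. Day 8 libraries stand left of day 0 libraries, numbered by replicate, and day 0 replicate 1 is the 1 day 0 library among the day 8 values (0.396% 3p).

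A changed arm ratio was common: 45 of 72 hairpins with both arms at a mean of at least 20 CPM were called, or 62.5%, and the ages did not overlap in 34.7%. Of the 45 called, 26 (36.1% of the 72) moved toward the 5p arm and 19 toward the 3p arm. The shift of miR-21a toward 5p was exceeded by 11 hairpins, and the median shift over all 72 was 0.21. These counts follow the 5p arm, whichever arm was the more abundant, so they are not counts of shifts toward the abundant strand. Set in order of the log2 ratio at day 8, miR-21a was 4th of these 72, and it was 7th at day 0. This order holds only within the 72, since the minimum of 20 CPM leaves out hairpins with a scarcer arm. Some of those are more skewed, such as let-7g, with means of 13720 CPM of 5p and 6.13 CPM of 3p at day 8. Within the 72, those ahead of miR-21a at day 8 were miR-125a (9.55 ± 0.388, SD, n = 6), miR-93 (8.88 ± 0.171) and let-7b (8.50 ± 0.391). Behind it were let-7i (7.33 ± 0.141), miR-191 (7.30 ± 0.401) and let-7e (7.29 ± 0.159). The range of miR-21a, 7.55 to 8.38, overlapped those of let-7b, let-7i and miR-191 at day 8.

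Of these 6, miR-125a also moved toward its 5p arm (1.50, limma adjusted p = 2.28e-06). let-7b (-0.58), let-7i (-0.86) and let-7e (-0.59) moved toward 3p with limma adjusted p-values of 0.00464, 2.71e-05 and 0.000134. miR-93 (-0.22) and miR-191 (-0.17) did not pass the threshold. Among the 72 hairpins, 18 had a more abundant arm that was called higher at day 8. The other arm was higher as well in 9 of these and lower in 4, and it was not called in 5, which were miR-21a, miR-143, miR-148b, miR-200b and miR-26b. These calls are on CPM, and those near the threshold can move with the scaling. The other arm of miR-143 had a limma adjusted p of 0.0501, and miR-21a-3p was called higher with upper quartile factors. In sequence, 63 of the 72 hairpins had RefSeq records of both arms. The more abundant arm began with U in 32 of them (50.8%) and the other arm in 12 (19.0%), and miR-21a is of the kind in which the abundant arm does and the other does not.

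**Figure D4:**
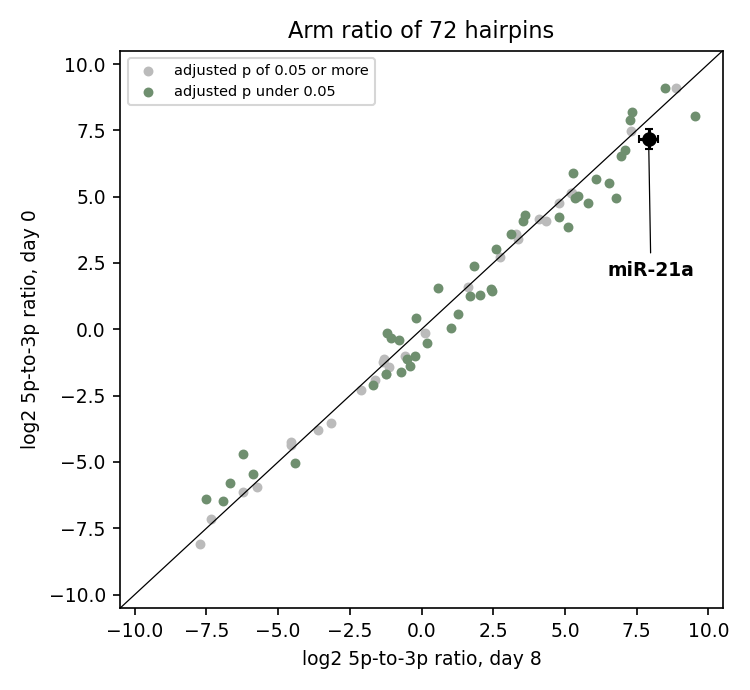
Mean log2 5p-to-3p ratio at day 8 (horizontal) against day 0 (vertical) for 72 hairpins, with a line of equal ratio, green where the change had a limma adjusted p under 0.05. miR-21a, in black with SD bars, lies at 7.92 and 7.17, right of the line, which is the side of a higher 5p-to-3p ratio at day 8.

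Within an age the arms did not vary together in a way that 6 libraries could show. At day 8 Pearson's r between log2(CPM + 1) of the arms was 0.295 (exact permutation p = 0.60) and Spearman's rho 0.0857 (exact permutation p = 0.919). At day 0 r was -0.0770 (exact permutation p = 0.897) and rho 0.257 (exact permutation p = 0.658). All 4 p-values were 0.919 after Benjamini-Hochberg adjustment in these exact permutation tests. Leaving out the 2 libraries farthest from the median of the 5p arm gave r of -0.206 at day 8 and -0.661 at day 0.

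Likeness to other miRNAs was measured as the root mean squared difference of log2(CPM + 1) over the 12 libraries, each profile first centred on its own mean, among 215 names with a mean of at least 100 CPM. The scaling of a library moves all profiles alike and hardly touches this distance. Nearest to miR-21a-5p were miR-200a-3p (distance 0.109), an epithelial miRNA, then miR-455-5p (0.123), miR-145a-3p (0.132), miR-140-5p (0.169) and miR-126a-5p (0.172), the last an endothelial miRNA. The median distance of miR-21a-5p to the other such names was 0.579, and miR-21a-3p lay at 0.497, which would be place 88. miR-200a-3p had 16003 ± 1080 CPM at day 8 and 9774 ± 548 CPM at day 0 (SD, n = 6 each), and miR-455-5p had 1090 ± 242 CPM at day 8 and 667 ± 65.5 CPM at day 0 (SD, n = 6 each). Their log2 changes were 0.40 to 0.73, a direction fixed by the choice, since the distance includes the difference between the ages. Nearest to miR-21a-3p, by the same choice, were miR-301a-3p (0.173), miR-9-3p (0.194), miR-708-3p (0.201), miR-218-5p (0.206) and miR-18b-5p (0.218), none of which passed the threshold in limma on CPM (adjusted p from 0.0576 to 0.477). miR-218-5p passed as higher with TMM (0.49), RLE (0.52) and upper quartile factors (0.67), and miR-708-3p with upper quartile factors (0.33).

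Other miRNAs linked to kidney injury and fibrosis did not move as a block. Of 25 on the list, 23 were tested, and 8 were higher at day 8 (34.8%, against 16.5% of all names), 10 were lower (43.5%, against 48.2%) and 5 were not called. The median log2 change of the list was -0.13, against -0.34 over all names. With TMM factors 11 were higher (47.8%, against 30.3% of all names) and 10 lower (43.5%, against 34.2%), and the list median was 0.21. With upper quartile factors the same numbers of members were called, against 37.8% of all names higher and 27.8% lower, so the distance between the list and all names depends on the scaling. miRNAs of the list called in a direction with CPM did not turn to the opposite call with TMM, RLE or upper quartile factors.

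The miR-29 family, which represses collagens and other matrix genes, was higher at day 8. miR-29a-3p had 507 ± 64.4 CPM at day 8 and 239 ± 38.1 CPM at day 0 (SD, n = 6 each; log2 change 1.09, limma adjusted p = 1.75e-06). miR-29b-3p (0.72) and miR-29c-3p (0.57) were called higher too. So were miR-192-5p (1.82), a tubular miRNA linked to TGF-beta signalling, miR-150-5p (1.22), abundant in lymphocytes, miR-34a-5p (0.68), a p53 target, miR-146a-5p (0.40), which damps NF-kappaB signalling, and the endothelial miR-126a-3p (0.25). These changes ran in the direction of miR-21a-5p.

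The other 10 members called were lower at day 8. The list was not divided by role in injury or fibrosis, so the direction of a change does not stand for a role. miR-214-3p, a stromal miRNA, had 55.6 ± 15.1 CPM at day 8 and 226 ± 50.7 CPM at day 0 (SD, n = 6 each; log2 change -2.01, limma adjusted p = 3.19e-07). miR-433-3p (-2.09), miR-382-5p (-2.09) and miR-494-3p (-1.54) come from the imprinted Dlk1-Dio3 locus. miR-132-3p (-1.48) and miR-212-3p (-1.16) are a CREB-driven pair, and miR-155-5p (-1.13) is a miRNA of activated leukocytes. miR-205-5p (-1.53), miR-18a-5p (-1.45) and the hypoxia-induced miR-210-3p (-0.84) were lower as well. The libraries of the 2 ages did not overlap for 18 of the 23 tested members (78.3%), against 45.9% of all names tested. The 5 not called were miR-145a-5p (0.19), miR-223-3p (0.14), miR-324-3p (-0.00), miR-24-3p (-0.13) and miR-199a-5p (-0.26). With TMM factors miR-145a-5p, miR-223-3p and miR-24-3p passed as higher (0.58, 0.53 and 0.26). miR-687, at or near 0 CPM in every library, did not reach the minimum, and miR-199a-3p was not listed under that name.

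**Figure D5:**
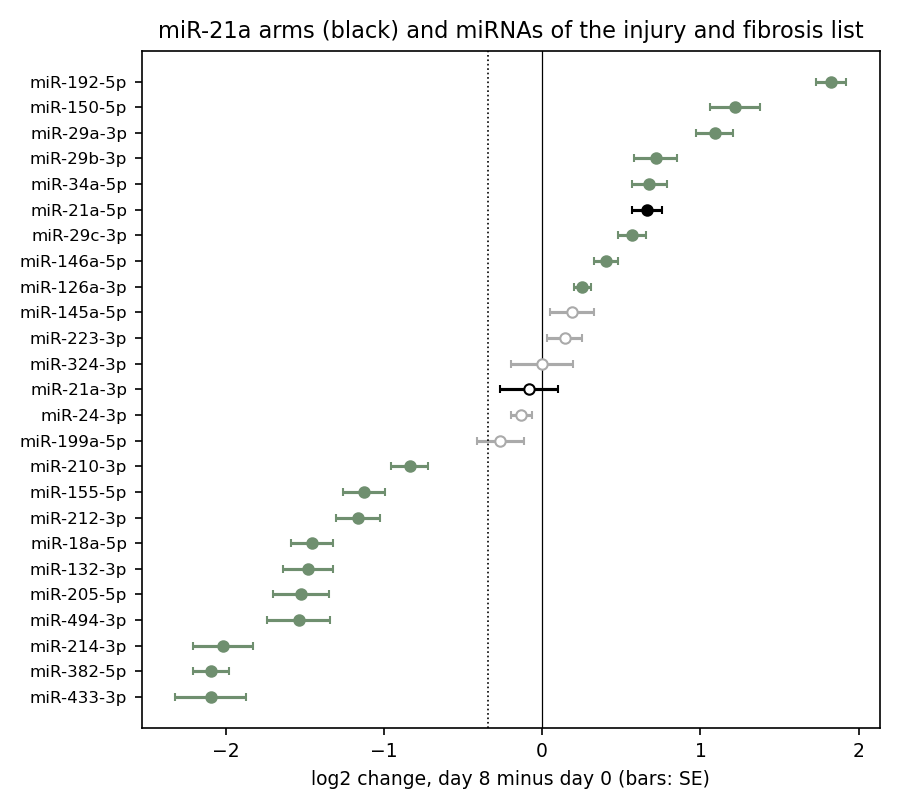
Log2 change, day 8 minus day 0 (horizontal axis), with SE bars for the arms of miR-21a (black) and the 23 tested miRNAs of the injury and fibrosis list, filled where the limma adjusted p was under 0.05. The dotted line marks the median of all names, -0.34; miR-21a-5p stands at 0.66 among the higher miRNAs and miR-21a-3p at -0.08 among those not called.

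Since miR-21a is made by many cell types, the markers of several are given beside its rise. Their calls were made on CPM and are to be read against 16.5% of all names higher and 48.2% lower. With TMM factors these shares of all names were 30.3% and 34.2%. All 6 kidney epithelial markers were detected, and 5 were called higher and miR-10a-5p lower at day 8. The change of miR-10a-5p, -0.24 (limma adjusted p = 0.0427), lay above the median of all names, -0.34. Its call holds on CPM and is not given for other factors. The summed level of the 6 markers ran from 95382 to 114662 CPM at day 8 and from 75038 to 87245 CPM at day 0. The largest part of that sum was miR-10a-5p, with means of 50936.5 CPM at day 8 and 59789.7 CPM at day 0. The 7 leukocyte markers include both arms of miR-142a. Of the 7 markers, 3 were higher and 1 lower. Their sum ran from 6129 to 7774 CPM at day 8 and from 4677 to 6260 CPM at day 0. The 2 endothelial markers, miR-126a-3p and miR-126a-5p, are arms of the same hairpin and do not count as separate loci. Both were higher, with sums of 120604 to 146671 CPM at day 8 and 101241 to 115855 CPM at day 0. Of 3 fibroblast and vascular muscle markers tested, miR-143-3p was higher and miR-214-3p lower, with sums of 40224.5 to 46045 CPM at day 8 and 32416 to 37980 CPM at day 0. These sums are mostly miR-143-3p, with means of 39731.8 CPM at day 8 and 30850.8 CPM at day 0, so they hardly register miR-214-3p. The sum of 2 erythroid markers overlapped, at 287 to 635 CPM at day 8 and 215 to 782 CPM at day 0. All 3 tested striated muscle markers and the liver marker miR-122-5p were lower at day 8, with muscle sums of 402 to 497 CPM at day 8 and 484 to 1981 CPM at day 0, and miR-122-5p at 15.2 to 330 CPM at day 8 and 478 to 3284 CPM at day 0. No marker listed was at 0 in all libraries. The part of these cells in the rise of miR-21a-5p was not tested.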

How the data were processed

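Per the labels' protocols, RNA extraction used the NucleoSpin miRNA kit and library preparation the QIAseq miRNA kit. The submitters' processing notes name FastQC. The aligner, genome build, miRBase release and handling of molecular identifiers were not given in the sources used here. The authors deposited 1 table of CPM for 1652 names, scaled so that each library sums to 1000000. Of its values, 100.0% were whole multiples of 1 read within 0.001 of a read, which gave the read numbers used for depth. Libraries of an age were not copies of each other (lowest chi-square per degree of freedom 59.9). Ages came from the age label, and replicates were numbered 1 to 6 in series order, which pairs nothing. All 12 columns were used.

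Ages were compared with limma 3.58.1 under R 4.3.3, using its trend option on log2(CPM + 1) values of the 564 names with at least 1 CPM in at least 6 libraries, with Benjamini-Hochberg adjustment over all of them at 0.05. The arm ratio was tested in the same way over 72 hairpins with both arms at a mean of at least 20 CPM. Share, rank and ratio of miR-21a were compared by two-sided exact permutation over 924 assignments (SciPy 1.17.1). limma was tested on simulated data beforehand. Alternatives were TMM, RLE and upper quartile factors, edgeR 4.0.16 and DESeq2 1.42.0 on recovered reads, other filters and pseudocounts, and each library left out in turn. Named miRNAs are the arms, sequence relatives, 2 neighbours on each side in level, the 5 nearest profiles of each arm, 3 neighbours on each side in arm ratio, and the list. The members, lists and tests were chosen with earlier results of these data known. Mature sequences and positions come from RefSeq (GRCm38.p6) and the host gene from GENCODE M21 (GRCm38).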

Additional observations from a re-analysis of the deposited data

Results flagged for a closer look

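A library was singled out where its gap to the nearest of its age exceeded Dixon's 95% critical value for 6 libraries. This happened in 8 of 112 groups of values, and chance alone gives about 1 in 20. For miR-21a itself the library was day 0 replicate 1. Its log2 5p-to-3p ratio of 7.93 stood above the next value of 7.15 at that age, and its 3p share of 0.396% stood below the next share of 0.688%. The same library had the lowest day 0 level of miR-30e-5p, 2982 CPM, against 3894 CPM in the next. Its depth, 7.92 M reads, was within the range of the other day 0 libraries.

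At day 8, replicate 3 had the highest miR-132-3p, 166 CPM against 112 CPM in the next library, and the highest miR-212-3p, 6.20 CPM against 4.24 CPM. Day 0 replicate 2 had the highest miR-148a-3p, 10215.9 CPM against 8069 CPM, and the highest miR-12188-5p, 179 CPM against 40.8 CPM. The highest day 8 library in miR-12188-5p was replicate 6, with 6.28 CPM against 3.67 CPM.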

How the results depend on the processing

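The rise of miR-21a-5p kept its direction and its call under all 9 other settings of the fit (log2 change 0.66 to 1.23) and without any one library (0.60 to 0.72). Its share difference was 0.884 percentage points with the 10 most abundant other names left out of the total. Because that total is smaller, the fold is the fairer measure, and it was 1.58 there against 1.60 with all names. The difference was 0.733 when CPM was scaled by TMM factors, and 0.395 to 0.503 on CPM without any one library. The rank difference of miR-21a-5p ran from -10.1 to -8.83. The arm ratio kept its call with pseudocounts of 0.1 and 5 and an arm minimum of 5 CPM (0.74 to 0.75), and without any one library (0.66 to 0.90). With a minimum of 100 CPM miR-21a could not be fitted, since its 3p arm is below it. The number of hairpins with a changed ratio was 68 of 112 at the lower minimum, 26 of 34 at the higher, and 41 to 46 without any one library. miR-21a-3p turned to a positive log2 change with TMM (0.30), RLE (0.33) and upper quartile factors (0.47), with edgeR (0.30) and with DESeq2 (0.35), and without day 8 replicate 3 (0.00056), within -0.22 to 0.00056 over all libraries left out. Its share difference was 0.00108 percentage points with TMM factors and -0.00075 to -2.62e-05 without any one library, and its rank difference was -29.6 to -19.1. At day 0 rho between the arms turned to -0.143 with TMM factors. Names called higher numbered 93, and 171 with TMM, 175 with RLE, 213 with upper quartile factors, 173 with edgeR and 180 with DESeq2 (89 to 98 without any one library). Names called lower numbered 272, and 193 with TMM, 189 with RLE, 157 with upper quartile factors, 195 with edgeR and 189 with DESeq2 (254 to 281 without any one library). Members of the list called higher were 8 and lower 10 to 11 without any one library. No paired analysis was possible because the labels give no number that the ages share. Reads of the 3p arm were few, with 187 in the smallest library of each age. Its CPM also varied between libraries, with a coefficient of variation of 21.8% at day 8 and 22.2% at day 0.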
